A study of Mus musculus with 2 samples.

Results

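Among cultured stromal cells of mouse fat, the 1951 mesenchymal cells with the most RNA for smooth muscle contractile proteins were compared with the 37550 other mesenchymal cells of the same cultures. A cell counted as mesenchymal when it had at least 1 UMI (unique molecular identifier, 1 captured RNA molecule) of Pdgfra, the PDGF receptor that marks adipose stromal and progenitor cells, and none of Epcam, Ptprc, Pecam1 and Sox10, which mark epithelial, immune, endothelial and Schwann cells. In each library, the 5% of these cells in which Acta2, Tagln and Cnn1 (smooth muscle actin, transgelin and calponin 1) together took the largest share of UMIs were chosen. Cells with 3 or more UMIs of Rgs5, a pericyte gene, were then not kept among the chosen, which moved 6 cells in the iWAT library and 17 in the iBAT library to the other mesenchymal cells. All 26 iWAT and 136 iBAT mesenchymal cells with so many Rgs5 UMIs are thus in that comparison group. The 753 iWAT and 1198 iBAT cells left are called contractile-high cells here. Apart from the share that chose the cells, the 3 genes of the rule are left out of the results.

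The cells came from the stromal vascular fraction of inguinal white fat (iWAT) and interscapular brown fat (iBAT) of wild-type C57BL/6N mice aged 8-12 weeks per the labels. The fraction from pooled animals was cultured to 80% confluency and then, per the labels, left untreated or given FGF1, FGF2 or FGF8 at 5.5 nM for 48 hours. The published methods name only vehicle, FGF1 and FGF2 for these cells. Cells of the 4 treatments were tagged and loaded together, 10000 per treatment, so each depot is 1 library, and the treatment of a cell was not used here. Depot, culture, library and depth therefore cannot be told apart, and treated and untreated cells are mixed in every value. There was no replicate, so no test was possible, and the cells were chosen on the same counts that are compared. All values below are descriptions, and their 95% intervals cover counting error only.

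Myofibroblasts are mesenchymal cells that build contractile stress fibres and lay down collagen in wounds and fibrotic tissue. Their smooth muscle genes are driven in large part by serum response factor (SRF), which binds the CArG box, a short AT-rich element, together with cofactors of the MRTF family that enter the nucleus when actin is polymerised. TGF-beta and tension on a stiff surface such as culture plastic favour this state, whereas FGF signalling through ERK favours proliferation and opposes it. In fat, Pdgfra-positive progenitors can take either the adipogenic or the myofibroblast route.

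The libraries held 5.04e+08 UMIs in 29962 barcodes (iWAT) and 8.15e+08 UMIs in 28636 barcodes (iBAT), with 8 barcodes found in both. After removal of cells with 200 genes or fewer, 7500 genes or more, or 30% or more mitochondrial UMIs, 29744 and 28215 cells remained. Of these, 15196 iWAT cells (51.1%) and 24305 iBAT cells (86.1%) were mesenchymal by the rule. Contractile-high cells were slightly deeper than the other mesenchymal cells, with a median of 20282 against 18011 UMIs in iWAT and 29704 against 27667 in iBAT. Their median mitochondrial share was 5.52% against 5.44% in iWAT and 6.40% against 6.43% in iBAT. A doublet caller marked 2 of the iWAT and 5 of the iBAT contractile-high cells.

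The limit that chose the contractile-high cells lay on the slope of a single upper tail of the score, where neighbouring values are close by the nature of such a limit. The lowest share of the 3 genes inside the iWAT set was 9741.45 on the counts-per-million scale (CPM), and the highest share just outside it was 9740.64. In iBAT these were 8863.75 and 8858.78 CPM. Within 10% of the limit lay 253 of the iWAT contractile-high cells and 410 cells below it, and in iBAT 332 and 450 cells.

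**Figure D1:**
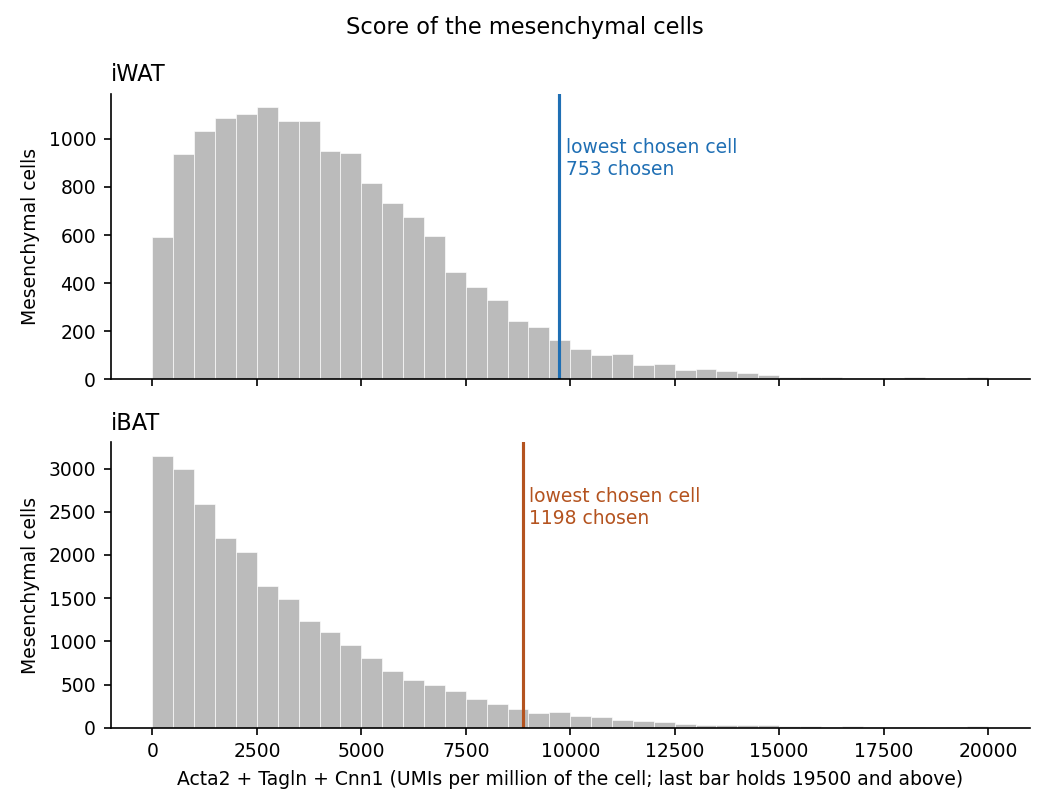
Share of UMIs taken by Acta2, Tagln and Cnn1 (x axis, CPM) against the number of mesenchymal cells (y axis) in each library, with a line at the limit that chose the contractile-high cells. Both libraries have 1 long upper tail, and the limit at 9741 CPM (iWAT) or 8864 CPM (iBAT) falls on its slope with no gap.

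Levels were compared for the 6152 genes that reached 20 CPM in the contractile-high or in the other mesenchymal cells of each library. A gene was called higher or lower when the ratio of the summed counts passed 1.5-fold in that direction. In both libraries, 82 genes (1.33% of those compared) were called higher and 131 (2.13%) lower. Within iWAT the calls were 99 higher (1.61%) and 253 lower (4.11%), and in iBAT 179 higher (2.91%) and 236 lower (3.84%). The 82 shared genes were 82.8% of the genes higher in iWAT and 45.8% of those higher in iBAT. The median gene lay slightly below 0, at a log2 ratio of -0.10 in iWAT and -0.11 in iBAT. With the median gene set to 0 (median-of-ratios scaling), 113 genes were higher and 65 lower in both, so that the share of higher genes among the calls went from 38.5% to 63.5%.

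**Figure D2:**
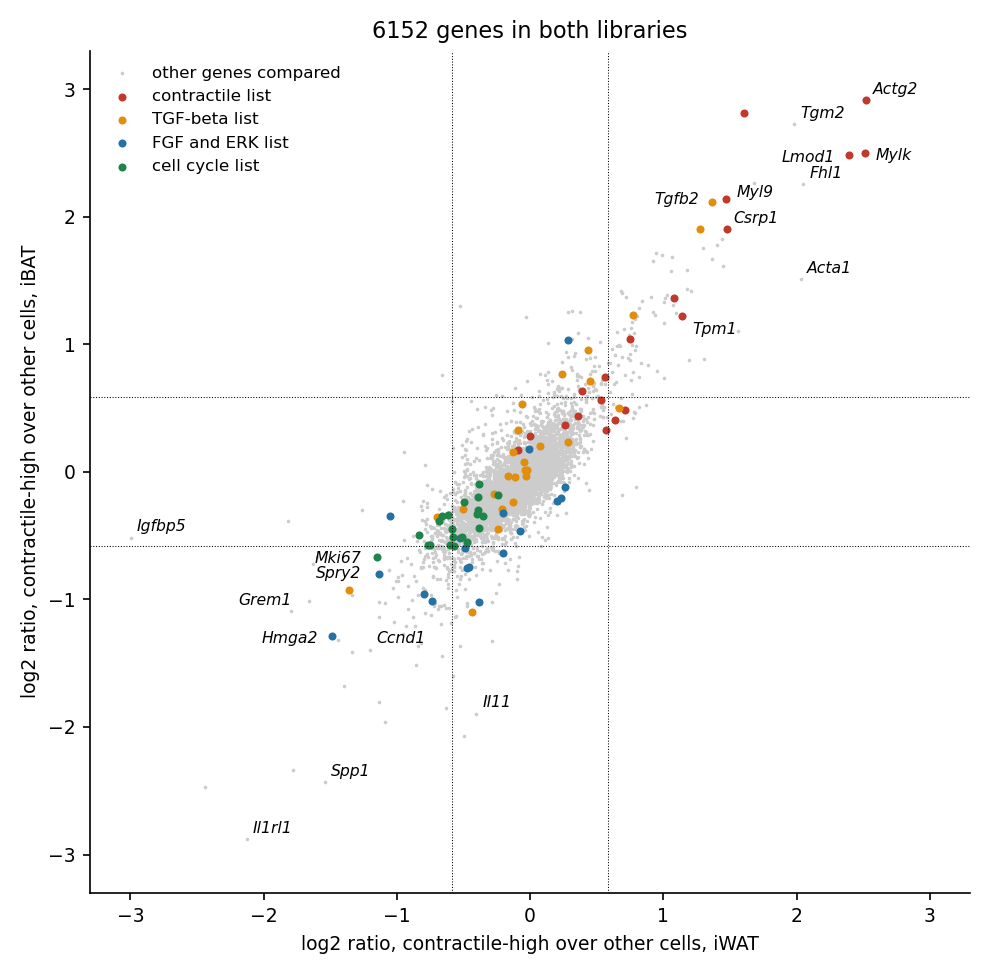
Log2 ratio of contractile-high over other mesenchymal cells in iWAT (x axis) against iBAT (y axis) for 6152 genes, 1 point a gene, with 4 gene lists coloured. Contractile genes lie to the upper right, led by Actg2 (2.52 and 2.91), and Il1rl1 (-2.13 and -2.88) lies at the lower left.

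Genes of the smooth muscle contractile apparatus other than the 3 of the rule were higher in the contractile-high cells of both depots. Of 25 such genes, 19 were compared, 9 were called higher in both libraries against the 1.33% of all genes, and 0 were called lower. The list's median log2 ratio was 0.71 in iWAT and 0.75 in iBAT, against -0.10 and -0.11 over all genes, and all 19 genes lay above the median of all genes in both, 18 of them also above 0. The largest ratios among them belonged to genes that are sparse in other mesenchymal cells. Actg2, the gamma actin of visceral smooth muscle (GRCm39 chr6:83489887-83513551, minus strand), was at 148 against 25.7 CPM in iWAT and 219 against 29.1 CPM in iBAT. These are ratios of 5.75 (95% interval 5.48 to 6.03) and 7.53 (7.33 to 7.73).

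Among the contractile genes called higher were some that act in myosin activation. Mylk, the kinase that phosphorylates the myosin light chain and so starts contraction (chr16:34565580-34822790, plus strand), was at 122 against 21.3 CPM in iWAT and 506 against 89.7 CPM in iBAT, or 5.72-fold and 5.64-fold. Its substrate Myl9, the smooth muscle light chain, was at 590 against 213 CPM and 647 against 147 CPM. Ppp1r14a, an inhibitor of the myosin phosphatase that opposes Mylk, was at 20.5 against 6.76 CPM and 49.4 against 7.01 CPM. Ppp1r14a, like Lmod1, was over 20 CPM only in the contractile-high cells and so could enter only as a higher gene, which leaves 7 of the 9 contractile calls over the limit in both groups. Of the 82 higher calls over all genes, 57 were over the limit in both groups, and of the 131 lower calls 82. The nonmuscle myosin heavy chains were close to 0, with log2 ratios of 0.00 and 0.28 for Myh9 and -0.09 and 0.17 for Myh10.

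Genes of the thin filament gave both large and small differences. Lmod1, a leiomodin that nucleates actin filaments in smooth muscle (chr1:135252509-135295907, plus strand), was at 41.5 against 7.91 CPM in iWAT and 57.7 against 10.3 CPM in iBAT. The tropomyosins, which wrap the filament, were higher by smaller factors. Tpm1 was at 5125 against 2330 CPM and 3065 against 1312 CPM, and the log2 ratios of Tpm2 were 1.08 and 1.37. Cnn2, a calponin of nonmuscle cells, had 0.75 and 1.04, and Csrp1, a LIM protein of smooth muscle, 1.48 and 1.90. Caldesmon (Cald1), with 0.36 and 0.44, stayed under the limit in both libraries. Smtn (smoothelin), a marker of contractile smooth muscle, had 0.71 in iWAT and 0.48 in iBAT and so passed the limit in iWAT alone.

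The late markers of differentiated smooth muscle were scarce. Myh11, the smooth muscle myosin heavy chain, was under the 20 CPM limit in iWAT and was not among the genes compared. It was at 14.4 CPM in contractile-high and 2.12 CPM in other mesenchymal cells of iWAT, and at 27.6 against 1.67 CPM in iBAT. Des (desmin), the intermediate filament of muscle, was at 7.97 against 6.38 CPM in iWAT and 0.987 against 2.51 CPM in iBAT. Desmin thus gave no common direction.

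Shares of cells with a UMI were also compared. For shares of cells at equal depth, every cell was thinned to 10000 UMIs, which left out 41 contractile-high and 1500 other iWAT cells with fewer UMIs and no iBAT cell. After thinning, Actg2 was found in 43.0% of contractile-high against 14.7% of other cells in iWAT (50.5% and 20.2% without thinning), and in 54.5% against 16.3% in iBAT (67.1% and 27.5%). In 134 iWAT and 296 iBAT cells with Ptprc, an immune gene, thinned in the same way from median depths of 14701 and 24952 UMIs, the share was 7.46% and 8.78%. Lmod1 was found in 30.5% against 6.52% of thinned cells in iWAT and 37.5% against 8.69% in iBAT, with 2.24% and 5.74% in Ptprc-positive cells. Lmod1 RNA was detected in only part of the contractile-high cells, which at such levels and this depth does not show that the cells differed. Actg2 was spread unevenly among the contractile-high cells. Without thinning, its per-cell median was 32.5 CPM (10th to 90th percentile 0 to 468) in iWAT and 82.1 CPM (0 to 609) in iBAT. Myh11 was found in 9.41% of thinned contractile-high cells in iWAT and 16.6% in iBAT. Its share in other thinned mesenchymal cells was 1.49% and 1.41%. This lay within the wide exact intervals of the thinned Ptprc-positive cells, at 2.99% (0.819 to 7.47) in iWAT and 1.35% (0.369 to 3.42) in iBAT. It is not read as expression in the other mesenchymal cells as a whole. They include cells with 3 or more Rgs5 UMIs, a class with more Myh11, so these shares do not show that Myh11 was absent. Myl9, by contrast, had a UMI in 99.6% and 100% of unthinned contractile-high cells.

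Across single mesenchymal cells, the share of the 3 rule genes went with the summed share of the contractile list, with a Spearman rho of 0.78 in 15196 iWAT cells and 0.80 in 24305 iBAT cells. Within the contractile-high cells alone rho was 0.44 and 0.47. The per-cell sum of the list had a median of 18434 CPM (10th to 90th percentile 14346 to 23086) in contractile-high and 11112 CPM in other iWAT cells, and 16486 CPM (13151 to 21877) against 9211 CPM in iBAT. These cells share a library, and both measures share a denominator of UMIs.

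Among skeletal and cardiac muscle genes, Acta1 stood apart. Acta1, the alpha actin of skeletal muscle, was at 474 against 116 CPM in iWAT and 112 against 39.3 CPM in iBAT. It was the only gene of a list of 17 skeletal and cardiac muscle genes that reached the limit of 20 CPM. Myod1 and Myog, which specify skeletal muscle, had 0 UMIs in the iWAT contractile-high cells, which allows a level of up to 0.198 CPM. In iBAT Myog was at 0.705 against 10.9 CPM and Myod1 at 0.225 against 2.06 CPM. The 17 genes summed to 492 against 133 CPM in iWAT and 143 against 153 CPM in iBAT, so that in iBAT the muscle genes other than Acta1 were together lower in the contractile-high cells. The Acta1 ratio in iBAT changed direction in the small part of cells without any UMI of a cycling gene. Among the 96 contractile-high and 1201 other iBAT cells without a UMI of 6 cycling genes, its log2 ratio was -0.98. Fhl1, a LIM-domain protein of muscle and of stretched cells, was at 199 against 48.1 CPM and 371 against 77.8 CPM. Nexn (nexilin), an actin filament binder, had log2 ratios of 1.21 and 1.42.

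Because SRF binds CArG boxes, the promoters of these genes were searched for the box on both strands, from 250 bases before to 50 after the start of the canonical transcript (GRCm39, GENCODE M39). Of the 82 genes higher in both libraries, 79 had such a promoter and 10 of these (12.7%) held a box. The share was 1.54% over 21757 promoters of protein-coding genes and 1.40% over 5986 genes compared, and 0 of 127 promoters of the genes lower in both libraries held one. The 10 genes were Acta1, Bag2, Cnn2, Dmd, Fhl1, Filip1l, Glipr1, Khdrbs3, Lurap1l and Vcl. Of the 19 contractile genes compared, only Cnn2 had a box in this window, so the count was not carried by the contractile list. The cells were chosen by RNA of Acta2, Tagln and Cnn1, which are smooth muscle genes themselves, and Tagln holds a box in this window. The share among genes that rise with them may thus be set in part by the rule. Of the 82 higher and 131 lower genes, 25 and 49 reached the CPM limit of a library only in the group where they were higher. The part of SRF in these shares was not tested. A match of letters is not a bound site, and a window without the letters says nothing of SRF. Of these promoters, 6 are shown as stretches of 120 bases, 5′ to 3′ on the gene's strand, with the CArG box in capitals, because they show the box in genes that were higher in both depots, among them genes of actin (Acta1), adhesion (Vcl) and the LIM-domain family (Fhl1). They lie at chr8:124621817-124621936 (Acta1, minus strand, box 223 bases before the start), chr10:79824291-79824410 (Cnn2, plus, 33 before), chrX:55824886-55825005 (Fhl1, plus, 142 before), chr14:20979216-20979335 (Vcl, plus, 227 before), chr16:57369485-57369604 (Filip1l, plus, 62 before) and chr4:80828690-80828809 (Lurap1l, plus, 138 before).
Acta1: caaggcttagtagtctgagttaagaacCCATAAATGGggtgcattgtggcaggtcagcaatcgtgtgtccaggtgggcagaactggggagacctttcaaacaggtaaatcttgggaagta
Cnn2: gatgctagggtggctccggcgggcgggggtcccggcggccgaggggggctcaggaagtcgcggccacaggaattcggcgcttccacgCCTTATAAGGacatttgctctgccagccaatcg
Fhl1: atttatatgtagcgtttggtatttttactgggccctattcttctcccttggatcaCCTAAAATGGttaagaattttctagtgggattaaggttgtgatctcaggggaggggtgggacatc
Vcl: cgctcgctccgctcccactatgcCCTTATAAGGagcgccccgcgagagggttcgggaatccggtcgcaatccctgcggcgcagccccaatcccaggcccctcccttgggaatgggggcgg
Filip1l: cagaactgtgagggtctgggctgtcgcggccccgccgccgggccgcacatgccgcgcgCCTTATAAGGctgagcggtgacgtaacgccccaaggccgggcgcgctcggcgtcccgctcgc
Lurap1l: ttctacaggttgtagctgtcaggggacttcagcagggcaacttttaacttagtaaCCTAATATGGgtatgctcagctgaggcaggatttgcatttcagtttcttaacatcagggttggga
Cnn2, Vcl and Filip1l carry the same box, and the other 3 differ from it and from each other. Filip1l, a filamin-interacting protein, had log2 ratios of 0.66 and 0.84, and Lurap1l 1.45 and 1.61.

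The genes around SRF gave few calls. Srf itself had log2 ratios of 0.33 in iWAT and 0.59 in iBAT, the latter past the limit. Of the 8 genes in the list of SRF, its cofactors and immediate early targets, 6 were compared and 0 were called in both libraries, which at 1.33% and 2.13% of all genes says little about so short a list. Its medians were -0.22 and 0.34. Fos, an immediate early gene, was at 307 against 387 CPM in iWAT and 157 against 110 CPM in iBAT.

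Genes of focal adhesions and stress fibres, which anchor contractile filaments to the membrane, mostly had small positive log2 ratios. Most were not called in both libraries. Of 28 such genes 26 were compared, and 7 were called higher in both libraries, against 1.33% of all genes, and 0 lower, against 2.13%. Within iBAT 13 were called higher, against 2.91% of all genes, and 1 lower, against 3.84%. Within iWAT 9 were called higher, against 1.61%, and 0 lower, against 4.11%. Itga1 was over 20 CPM in iWAT in the contractile-high cells only. The list's median log2 ratio was 0.48 in iWAT and 0.56 in iBAT. Vcl (vinculin), which links integrin complexes to actin, was at 495 against 296 CPM and 611 against 290 CPM. Itga1, a collagen-binding integrin subunit, was at 33.2 against 15.9 CPM and 69.2 against 23.2 CPM. Tns1 (tensin 1), Palld (palladin), Pdlim5 and Dstn (destrin), which act at adhesions or on actin filaments, had log2 ratios between 0.71 and 1.28. The seventh gene was Csrp1, also in the contractile list. Pxn (paxillin), an adaptor of the same adhesions, had log2 ratios of -0.53 and -0.70 and passed the limit in iBAT alone.

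Of the TGF-beta ligands, Tgfb2 and Tgfb3 were higher and Tgfb1 was not. Tgfb2 was at 133 against 51.6 CPM in iWAT and 108 against 24.9 CPM in iBAT, or 2.58-fold (2.46 to 2.70) and 4.33-fold (4.18 to 4.49). Tgfb3 was at 119 against 49.1 CPM and 135 against 36.2 CPM. Tgfb1 was under the limit in iBAT and not among the genes compared, at 19.0 against 27.4 CPM in iWAT and 8.77 against 13.7 CPM in iBAT. With the target gene Ccn2, a matricellular protein, these 2 were the 3 genes called higher in both libraries among 26 compared of a list of 33, against 1.33% of all genes, and 1 was called lower, against 2.13%. Tgfbr3 (betaglycan), the coreceptor that presents TGF-beta2, was lower, at 30.7 against 78.5 CPM in iWAT and 77.2 against 147 CPM in iBAT. Smad7, an inhibitory SMAD that the pathway induces, had log2 ratios of -0.13 and 0.16. The list's median was -0.05 and 0.05. Within iBAT 6 of its genes were called higher, against 2.91% of all genes, and 2 lower, against 3.84%. Within iWAT 4 were called higher, against 1.61%, and 2 lower, against 4.11%. Summed, its 33 genes were at 22855 against 18200 CPM in iWAT and 16549 against 10048 CPM in iBAT.

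Targets of YAP, the coactivator that responds to tension, overlapped with that list. Of 26 genes 21 were compared and 5 were called higher in both libraries, namely Ccn2, Crim1, F3, Tgfb2 and Ccdc80, against 1.33% of all genes. The list's median log2 ratios were 0.19 and 0.37, against -0.10 and -0.11 over all genes. Ccn2 was at 2623 against 1539 CPM in iWAT and 1850 against 789 CPM in iBAT. F3 (tissue factor), which starts coagulation and which also marks a stromal population of fat, was at 961 against 500.5 CPM and 2007 against 857 CPM. Ankrd1, a stretch-responsive target, had log2 ratios of 0.37 in iWAT and 1.25 in iBAT.

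The matrix genes for which myofibroblasts are known gave few calls shared by the depots, and the cells are therefore called by their rule and not myofibroblasts. Of 33 matrix genes 28 were compared, 1 was called higher in both libraries (Aspn, a small proteoglycan, at log2 ratios of 0.62 and 0.96) and 2 lower, against 1.33% and 2.13% of all genes. Within iBAT 6 (Aspn included) were called higher, against 2.91% of all genes, and within iWAT 2, against 1.61%. The list's median log2 ratio was 0.0047 in iWAT and 0.19 in iBAT, against -0.10 and -0.11 over all genes, and 17 of the 28 lay above and 5 below the median of all genes in both libraries. Col1a1, the main chain of type I collagen, was at 16868 against 17693 CPM in iWAT and 9292 against 6136 CPM in iBAT. Postn (periostin) had log2 ratios of 0.22 and 0.65. Lrrc15, a marker of myofibroblasts in disease, was under the limit in iBAT, at 131 against 79.3 CPM in iWAT and 8.68 against 4.04 CPM in iBAT. The 2 lower genes were Thbs2, a matricellular inhibitor of angiogenesis, and Grem1, an antagonist of bone morphogenetic proteins. Thbs2 was at 1366 against 2358 CPM and 510 against 806 CPM, and Grem1 at 92.5 against 291 CPM and 362 against 729 CPM. With only chosen cells that had 0 UMIs of Rgs5, Cspg4, Kcnj8, Abcc9 and Notch3, Thbs2 was not called, at log2 ratios of -0.48 and -0.25.

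**Figure D3:**
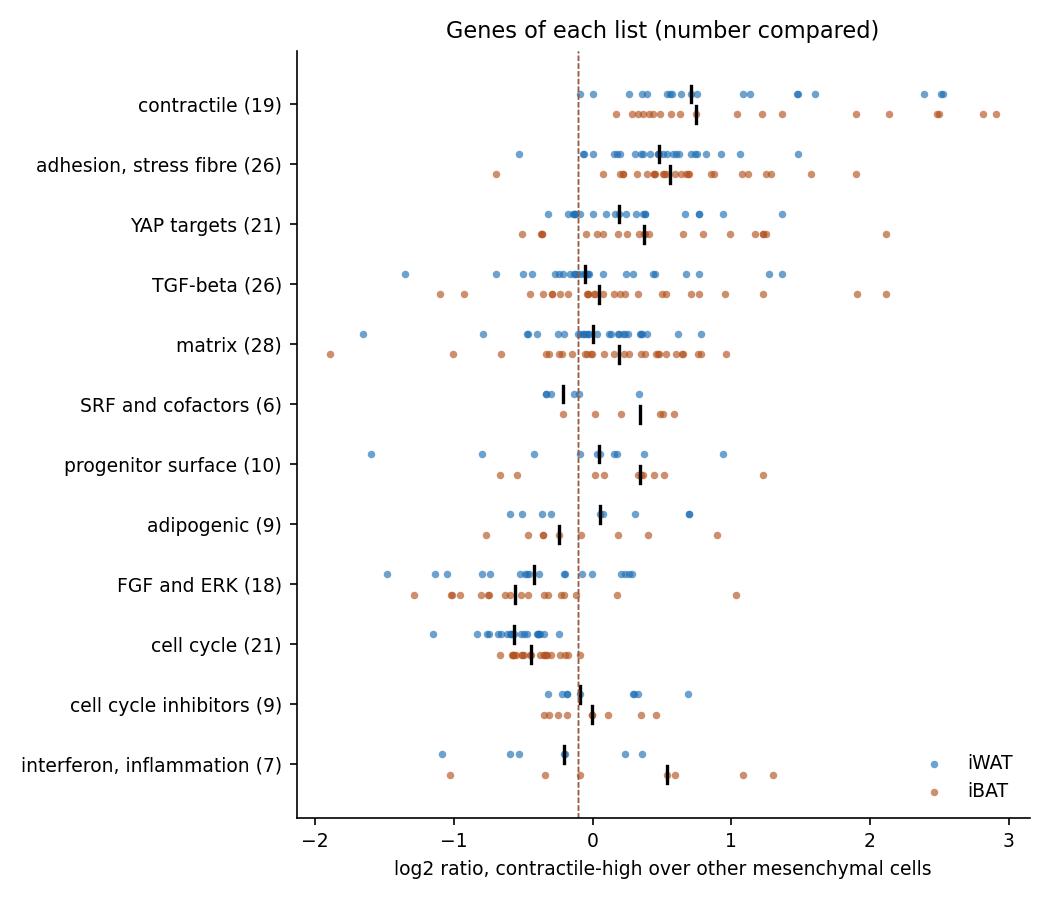
Log2 ratios of contractile-high over other mesenchymal cells (x axis) for each gene compared in 12 lists, iWAT and iBAT in separate colours, with the median of each list as a black bar and the median of all genes as a dashed line. Contractile genes centre on medians of 0.71 (iWAT) and 0.75 (iBAT), and FGF and ERK genes on -0.42 and -0.56. The medians are 0.0047 and 0.19 for matrix genes and -0.05 and 0.05 for TGF-beta genes, with genes on both sides.

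The genes lower in both libraries included Il1rl1 and Spp1. Il1rl1, the IL-33 receptor ST2 (chr1:40468730-40504575, plus strand), was at 124 against 540 CPM in iWAT and 114 against 839 CPM in iBAT, ratios of 0.229 (0.219 to 0.240) and 0.136 (0.132 to 0.140). Spp1 (osteopontin), a secreted adhesive glycoprotein, was at 903 against 2625 CPM and 622 against 3361 CPM. At 10000 UMIs per cell, Il1rl1 was found in 40.9% of contractile-high and 63.7% of other cells in iWAT and in 34.4% and 64.7% in iBAT, while Ptprc-positive cells thinned in the same way had it in 33.6% (exact interval 25.7 to 42.2) and 39.2% (33.6 to 45.0). Without thinning the shares were 54.6% against 71.5% and 57.1% against 78.7%.

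Of 28 genes of FGF and ERK signalling 18 were compared. In both libraries 0 were called higher and 4 lower, against 2.13% of all genes lower, and the list's median log2 ratio was -0.42 in iWAT and -0.56 in iBAT. The 4 were Spry2 and Spred1, feedback inhibitors that ERK activity induces, Fosl1, an AP-1 subunit stabilised by ERK, and Hmga2, a chromatin protein of growing mesenchyme. Spry2 was at 32.7 against 71.9 CPM and 43.5 against 75.8 CPM, and Hmga2 at 142 against 396 CPM and 330 against 806 CPM. The receptor Fgfr1 had log2 ratios of -0.46 and -0.75. Spry1, from the same family as Spry2, went the other way, with log2 ratios of 0.28 and 1.03. Because treated and untreated cells were not separated, the treatments' part in these values was not tested.

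Of 21 cell cycle genes, 20 lay below the median of all genes in both libraries, and the list's median log2 ratios were -0.57 and -0.44, but only Mki67 was called lower in both (against 2.13% of all genes), at 50.1 against 111 CPM and 65.1 against 103 CPM. Ccnd1 (cyclin D1), which drives entry into the cycle and is not in that list, was also called lower in both libraries, at 52.2 against 120 CPM in iWAT and 160 against 421 CPM in iBAT. Within iWAT 9 of the 21 list genes (Mki67 included) were called lower, against 4.11% of all genes, and in iBAT 1, against 3.84%. A UMI of a cycling gene was found in most cells of both groups. At equal depth, 73.9% of contractile-high against 82.9% of other iWAT cells had a UMI of 1 of 6 cycling genes, and in iBAT 74.3% against 83.6%. Thinned cells with Ptprc had such a UMI in 85.1% and 84.5%, and a single UMI is not read here as a cycling cell. Cell cycle RNA per cell had a median of 526 CPM in contractile-high and 1344 CPM in other iWAT cells, and 524 against 1582 CPM in iBAT. It spread widely, with a 10th to 90th percentile of 152 to 4065 CPM in iWAT contractile-high cells and 171 to 5501 CPM in iBAT. In other cells this was 208 to 4684 CPM in iWAT and 233 to 5732 CPM in iBAT. Across mesenchymal cells, rho between the rule genes and the cell cycle sum was -0.07 and -0.08, against -0.34 and -0.38 for a sum of ERK target genes. That sum held Hmga2, Spry2, Spry4, Spred1, Spred2, Dusp4, Dusp5, Dusp6, Etv4, Etv5 and Fosl1, and not Spry1. In other cells Hmga2 alone had a per-cell median of 205 CPM in iWAT and 548 CPM in iBAT, against 723 and 1194 CPM for the sum. Of 9 cell cycle inhibitors compared, 0 were called in both libraries, against 1.33% of all genes higher and 2.13% lower, and 1 was called higher in iWAT alone. In cells without a cycling UMI (103 contractile-high and 1501 other in iWAT, 96 and 1201 in iBAT), Actg2 had log2 ratios of 2.50 and 2.74, Mylk 2.11 and 1.91, and Il1rl1 -1.96 and -3.95.

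Genes of the adipogenic and progenitor programmes gave few calls. Of 9 adipogenic genes compared, Fabp5, a fatty acid-binding protein, was higher in both libraries (log2 ratios of 0.69 and 0.90), against 1.33% of all genes, and the medians were 0.05 and -0.24. Ucp1, the uncoupling protein of brown adipocytes, had 0 UMIs in the iWAT contractile-high cells and 17 in the iBAT ones, and its iBAT ratio of 1.47 had an interval of 0.839 to 2.40. Of 10 progenitor surface genes compared, 1 was called higher (F3) and 1 lower (Ly6a) in both libraries, 7 lay above the median of all genes in both, and the list's medians were 0.05 and 0.34. Ly6a (Sca-1), a surface marker of progenitors, was lower, at 44.1 against 133 CPM in iWAT and 452 against 718 CPM in iBAT, and 55% of its 3′ end is shared with other genes. Cd34, another progenitor marker, was scarce in iWAT, at 0.988 against 2.42 CPM, and at 4.40 against 29.2 CPM in iBAT, a ratio of 0.150 (0.128 to 0.176). Pdgfra, which the gate uses, was at 91.2 against 149 CPM and 185 against 293 CPM. Ccl2, a chemokine, was the only gene called in both libraries among 7 compared of the interferon and chemokine list (against 2.13% of all genes lower), at 181 against 385 CPM and 444 against 904 CPM. In iBAT alone 3 of the 7 were called higher, against 2.91% of all genes, and the list's medians were -0.21 and 0.54, the latter running from -0.69 to 0.65 over the alternatives.

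All mesenchymal cells of a library were ordered by the rule genes and divided into 20 bins, and a set of picked genes was followed. Many of these changed over much of the range and not only at its end, but not all did. Mylk in iWAT went from 8.21 CPM in bin 1 to 52.1 CPM in bin 19 and 131 CPM in bin 20. Ly6a in iBAT was at 784 CPM in bin 1, 804 CPM in bin 8 and 449 CPM in bin 20. Actg2 went from 2.46 CPM in the lowest to 147 CPM in the highest bin of iWAT and from 3.02 to 220 CPM in iBAT. Myl9 went from 36.8 to 591 CPM and from 11.6 to 648 CPM. Il1rl1 went the other way, from 1414 to 123 CPM in iWAT and from 1770 to 116 CPM in iBAT, and Spp1 from 5899 to 901 CPM and from 6792 to 620 CPM. Col1a1 had no such course in iWAT, with 16072 CPM in the lowest and 16870 CPM in the highest bin, but went from 2867 to 9332 CPM in iBAT. The highest bin also holds the few cells removed for Rgs5, and the bins describe the values that ordered them as much as the cells.

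**Figure D4:**
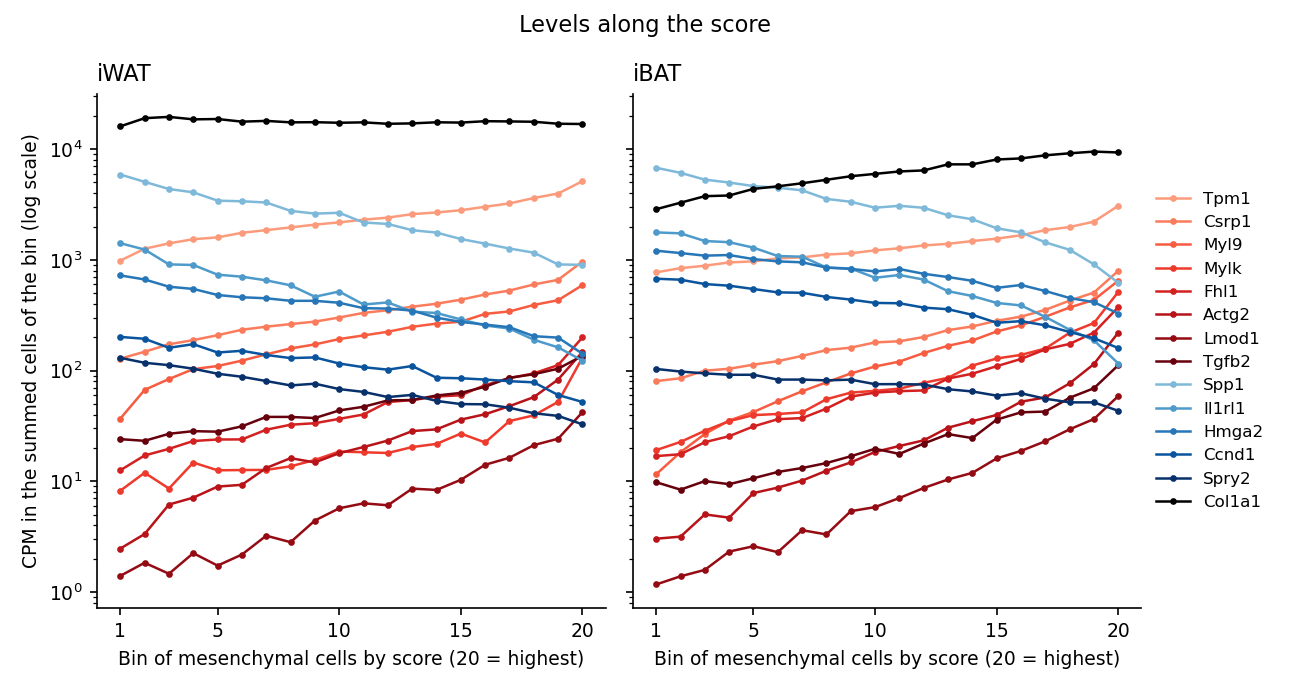
Level of each gene (y axis, CPM, log scale) in 20 bins of mesenchymal cells ordered by their share of Acta2, Tagln and Cnn1 (x axis, lowest to highest), for iWAT and iBAT. In the highest bin Actg2 reaches 147 CPM (iWAT) and 220 CPM (iBAT), and Il1rl1 ends at 123 and 116 CPM.

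Mural cells (pericytes and vascular smooth muscle) use the same contractile genes, so their markers were set beside these results. The summed level of 13 mural markers was 327 CPM in contractile-high and 342 CPM in other iWAT cells, and 302 against 237 CPM in iBAT. Rgs5 is among these markers, so the sum is partly set by the rule. It holds Rgs5 under 3 UMIs in contractile-high cells and counts cells with more among the other cells. Only 3 of the 13 reached the limit, and Mcam, an adhesion molecule of pericytes that other stromal cells also carry, was called higher in both libraries (against 1.33% of all genes), at 21.0 against 11.1 CPM and 34.4 against 10.9 CPM. It was over 20 CPM in the contractile-high cells only. The pericyte genes Kcnj8 and Vtn had 0 UMIs in the iWAT contractile-high cells, and in iBAT they were at 0.366 against 0.264 CPM and 0.254 against 0.102 CPM. Notch3, the mural Notch receptor, was at 5.73 against 6.96 CPM in iWAT and 25.9 against 16.0 CPM in iBAT. The chosen cells were then restricted to the 361 and 401 with 0 UMIs of 5 mural genes. The contractile-high cells dropped by this joined the other mesenchymal cells as the comparison group. Log2 ratios were 2.03 and 2.35 for Actg2, 2.26 and 1.87 for Mylk and 2.22 and 2.21 for Lmod1. For all 3 genes these were smaller than the ratios in all chosen cells, most of all for Mylk in iBAT, which was at 2.50 before. The dropped cells also raise the contractile level of the comparison group, and how much of the fall in the ratios this makes up was not tested. A count of 0 UMIs is also likelier in shallow cells. Mcam went to 0.60 in iWAT and -0.0050 in iBAT. The part of mural cells in these ratios was not tested.

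Markers of other cell types were set beside the results in the same way. Summed levels in contractile-high and other cells were 83.3 and 59.0 CPM (iWAT) and 32.9 and 17.1 CPM (iBAT) for 12 epithelial genes, which include contractile myoepithelial ones. Epcam is at 0 by the rule. Krt19, a keratin, carried most of that sum and was called higher in both libraries, with log2 ratios of 0.68 and 0.98, though in iBAT it was over 20 CPM in the contractile-high cells only, and Oxtr, a myoepithelial receptor, was at 0 in iWAT. Immune genes summed to 13.8 and 19.5 CPM in iWAT and 32.6 and 30.9 CPM in iBAT, and endothelial genes to 24.7 and 27.7 CPM and 37.0 and 24.4 CPM. Ptprc among the immune and Pecam1 among the endothelial genes are at 0 by the rule. Schwann cell genes summed to 509 and 427 CPM in iWAT and 217 and 199 CPM in iBAT, most of it Ncam1, an adhesion molecule not specific to Schwann cells, at 493 and 410 CPM and 186 and 170 CPM, and Sox10 is at 0 by the rule. The part of any of these cells in the results was not tested.

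Cells that fell outside the rule also held contractile RNA, with higher levels of Myh11 and Mcam. Among cells with 0 Pdgfra and none of the other 4 gate genes, 974 of 7300 (13.3%, exact interval 12.6 to 14.1) in iWAT and 253 of 1471 (17.2%, 15.3 to 19.2) in iBAT were above the limit. They had Actg2 at 164 CPM (iWAT) and 352 CPM (iBAT), against 148 and 219 CPM in contractile-high cells, and Myl9 at 580 and 741 CPM, against 590 and 647 CPM. Their Myh11 was at 34.8 and 113 CPM, against 14.4 and 27.6 CPM in contractile-high cells, and their Mcam at 34.8 and 98.3 CPM, against 21.0 and 34.4 CPM. At this depth 0 UMIs of Pdgfra can also be a missed molecule, so they need not be a separate kind of cell. The Rgs5 limit was not applied to these Pdgfra-zero cells. The 83 iWAT and 185 iBAT cells with 3 or more Rgs5 UMIs, of which 35 and 19 are also among these cells, had Myh11 at 200 and 68.7 CPM, Notch3 at 88.1 and 154 CPM and Des at 70.3 and 13.3 CPM. The 26 and 136 of them that were mesenchymal are also counted among the other mesenchymal cells. Of these 4 overlapping classes, desmin was highest in the Rgs5-high cells in both libraries.

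**Figure D5:**
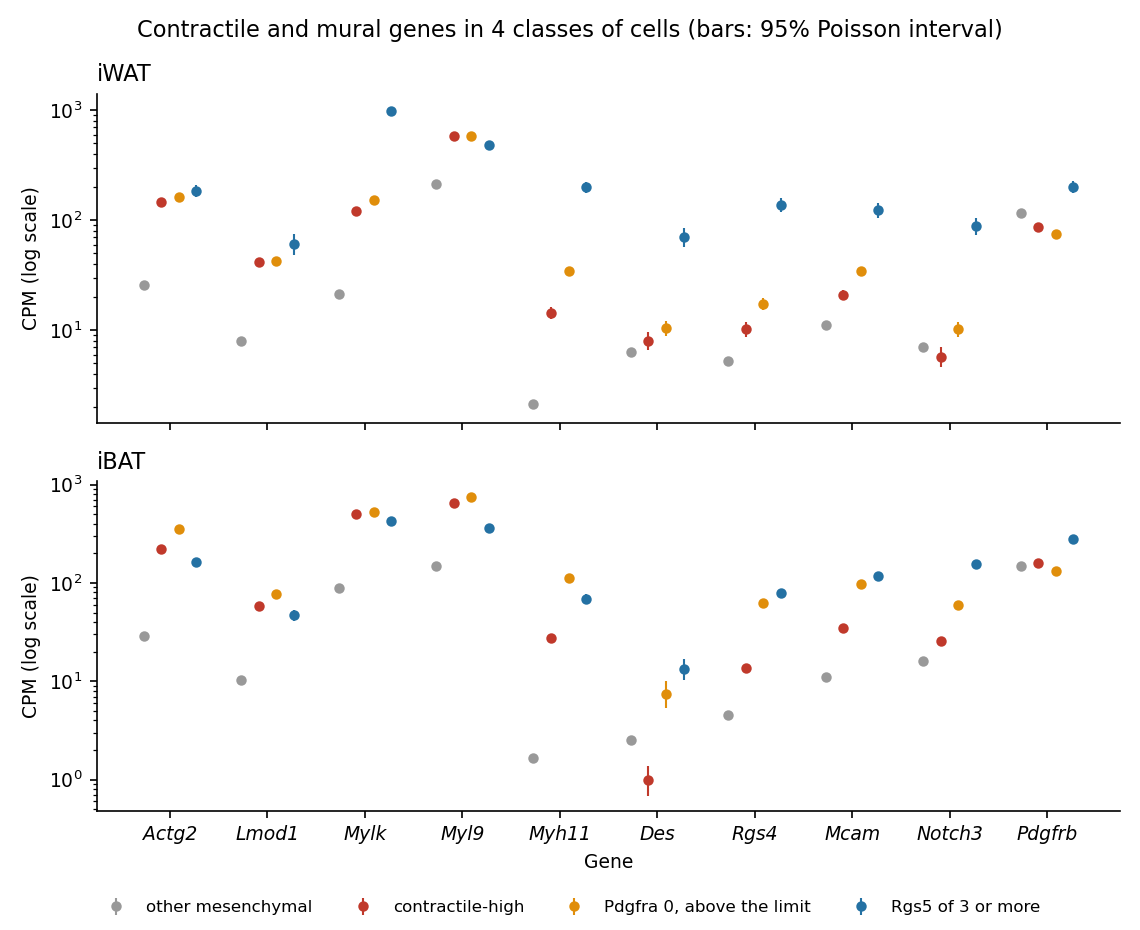
Level in CPM (y axis, log scale) of contractile and mural genes in contractile-high, other mesenchymal, Pdgfra-zero cells above the limit and Rgs5-high cells of each library, with exact 95% Poisson intervals for counting error. Myh11 was at 14.4 CPM in contractile-high cells of iWAT, 34.8 in Pdgfra-zero and 200 in Rgs5-high cells.

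The depots differed in the size of some ratios, which cannot be told apart from their difference in depth and culture. Among contractile genes Ppp1r14a was 3.04-fold higher in iWAT and 7.04-fold in iBAT, but with 0 UMIs of the 5 mural genes its log2 ratios were 1.85 and 2.06. Wide gaps among genes that reached 50 CPM in either group of both libraries included those of Igfbp5, Il11, Mmd, Igfbp4, Ly6a and Hs6st1. Igfbp5, a carrier of insulin-like growth factors, was at 16.9 against 135 CPM in iWAT and 67.0 against 95.8 CPM in iBAT. Over the alternatives its log2 ratio ran from -4.25 to -2.73 in iWAT and from -1.39 to -0.17 in iBAT. Il11, a cytokine that activates fibroblasts, was at 39.4 against 52.1 CPM in iWAT and 21.8 against 81.0 CPM in iBAT. Its iBAT log2 ratio of -1.89 was -0.63 with a score of Tagln and Cnn1 alone, and its iWAT one of -0.40 ran from -0.92 (0 mural UMIs) to -0.10 (Tagln and Cnn1). Hs6st1, a heparan sulfate sulfotransferase, had log2 ratios of 0.80 in iWAT and -0.12 in iBAT. Other genes that led the list of higher genes in both depots were Tgm2, the transglutaminase that crosslinks matrix proteins, at 208 against 52.7 CPM and 38.8 against 5.85 CPM (in iBAT over 20 CPM in the contractile-high cells only), Cd59a, which blocks the complement pore, with log2 ratios of 1.44 and 1.82, Cemip, which degrades hyaluronan, with 1.29 and 1.76, and Tnfsf15, a cytokine of the TNF family, with 1.09 and 1.25. At 10000 UMIs per cell Tgm2 was found in 71.5% of contractile-high, 30.4% of other mesenchymal and 70.1% of Ptprc-positive cells in iWAT. In iBAT these shares were 20.7%, 4.71% and 35.1%. Tgm2, Filip1l, Des and the genes named only for a CArG box were named after their values were seen. Genes that led the lower ones included Prkg2, a cGMP-dependent kinase, with -1.14 and -1.80, and Thbd (thrombomodulin), an inhibitor of coagulation, with -1.34 and -0.96. Others were Ptgs1, a prostaglandin synthase, with -0.96 and -1.27, Mmp19, a matrix protease, with -0.91 and -0.90, and Gja1 (connexin 43), a gap junction channel, with -0.86 and -1.21. In iWAT Prkg2 lost its call with a score of Tagln and Cnn1 (-0.579), and Gja1 in cells without a cycling UMI (-0.43).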

How the data were processed

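Stromal vascular cells of 2 mouse fat depots were profiled by BD Rhapsody whole-transcriptome single-cell RNA-seq, 1 library per depot. The deposited values are raw UMI counts per gene and cell, which the authors made with a commercial cloud pipeline (version not given in the sources used here), and the submitters' processing notes name mm39 (GRCm39) and Seurat 5.0.0. How the pipeline treated reads that match several genes is not given in the sources used here. The contractile-high cells and the gene lists were chosen with earlier results of these data known.

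Counts were summed over the cells of each group and divided by all UMIs except those of the 3 rule genes (CPM). Ratios are contractile-high over other mesenchymal cells of the same library, with exact conditional binomial 95% intervals. A gene was compared from 20 CPM in either group of both libraries and called at 1.5-fold. Named genes were the 15 highest and 15 lowest calls by the smaller of the 2 ratios from 50 CPM, the 5 with the widest gap between depots in each direction, and list genes. No test was run and no p-value is given. Doublets were marked with Scrublet in scanpy 1.11.5 (expected rate 0.08) and kept in the main values. Its automatic threshold marked 0 iBAT cells, so the iWAT threshold was used for both. The procedure was checked on simulated counts. Python 3.11.15, numpy 2.4.6, scipy 1.17.1 and pandas 2.3.3 were used.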

Additional observations from a re-analysis of the deposited data

Results flagged for a closer look

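Npr3, the clearance receptor for natriuretic peptides, was the 1 gene past 1.5-fold in opposite directions in the 2 depots. It was at 26.2 CPM in contractile-high and 41.5 CPM in other iWAT cells, and at 94.3 against 55.8 CPM in iBAT, so that its log2 ratio differed by 1.42 between the libraries. This difference was not tested, and depot, culture and library cannot be told apart.

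Cells outside the mesenchymal gate, which the comparisons do not use, also passed the share of Acta2, Tagln and Cnn1 that chose the contractile-high cells. There were 1342 such cells in iWAT and 329 in iBAT. Most had no Pdgfra UMI and none of the other 4 gate genes (974 and 253), and 283 and 7 had an Epcam UMI. Epithelial cells can hold contractile myoepithelial ones, and the source of these cells was not tested.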

How the results depend on the processing

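The counts of genes called in both libraries were recomputed under 21 alternatives, of which 1 (only the mesenchymal cells of at least median depth) was chosen after seeing the data. Of the 126 values, 106 stayed within 1.5 times the main count. The 82 higher genes became 157 with a limit of 5 CPM, 38 with 100 CPM and 31 at 2-fold. The 131 lower genes became 206 with the top 2% of cells, 72 with the top 10%, 77 with Pdgfra of 3 or more UMIs, 65 with median-of-ratios scaling, 269 and 26 with limits of 5 and 100 CPM, and 17 at 2-fold. Higher calls outnumbered lower ones with median-of-ratios scaling (113), 100 CPM and 2-fold, unlike in the main values. The 7 adhesion genes became 12 with median-of-ratios scaling and 2 at 2-fold. The 1 matrix gene became 0 with the top 2%, with a score of Acta2 and Tagln or of Tagln and Cnn1, with 0 mural UMIs, with 100 CPM and at 2-fold, 2 with a mean rank as score and 3 with 5 CPM. Limits and folds change the genes that can be called; for the other settings the cause was not tested. The 9 contractile and 3 TGF-beta calls stayed within 1.5 times. The chosen cells themselves changed with the setting. Of the 753 iWAT and 1198 iBAT contractile-high cells, 734 and 1177 were chosen again with a score of Acta2 and Tagln. With Tagln and Cnn1 these were 484 and 852, and with a mean rank 543 and 910. With Pdgfra of 3 or more UMIs 299 and 1015 cells were chosen, of which 146 and 806 were contractile-high cells of the main choice. The medians of the TGF-beta list (-0.11 to 0.26 in iWAT, -0.04 to 0.51 in iBAT) and, in iWAT, of the matrix (-0.06 to 0.11), adipogenic (-0.30 to 0.15) and progenitor (-0.15 to 0.15) lists took both signs. Acta1 in iBAT was at a log2 ratio of -0.98 in cells without a cycling UMI, and Hs6st1 in iBAT at 0.018 with a mean rank as score. No paired analysis was possible because each depot is 1 library. Depth limits genes such as Myh11 and Cd34, whose levels rest on few UMIs per cell.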
